A study of Mus musculus with 25 samples.

Results

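The collagen genes were taken as all rows of the deposited expression table whose gene symbol had the form Col, a type number, a and a chain number, which gave 43 of the 37406 genes listed. The table came from RNA-Seq of laser capture microdissected pieces of the mouse palate at E14.5. All animals were wild type CD1 mice, and no group carried a mutation or a treatment. There were 25 libraries from 8 compartments, with 4 replicates for anterior nasal and 3 for each of anterior medial, anterior lateral, anterior oral, posterior medial, posterior lateral, posterior oral and posterior nasal. The labels gave each library its compartment and replicate number but did not say whether replicates came from separate embryos, so p-values measure the spread between these samples. Each library held a piece of tissue with several cell types, and in such bulk samples fewer cells of a type and less RNA per cell cannot be told apart.

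Collagens are secreted or membrane proteins in which chains wind into a triple helix. Fibrillar collagens build the fibers of skin, bone and cartilage, the FACIT collagens (fibril-associated collagens with interrupted triple helices) sit on the surface of those fibers, type IV collagen forms the network of basement membranes, and type VI collagen forms beaded filaments around cells. In the palate, mesenchyme lays down a loose collagenous matrix, and bone and cartilage collagens are known from the skeletal elements that form in and near the shelves.

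RPKM values (reads scaled to the length of the transcript and to the mapped reads of the library) are per length, so levels of different genes could be set side by side. The steps between low values, set against annotated transcript lengths, implied depths of about 1640000 to 6560000 reads per library, with a median of about 3270000. These depths are far below the average reads per sample that the paper gives. The paper also states that duplicate reads and reads with more than 1 alignment were removed. A pair of libraries stood apart from the rest. Posterior medial replicate 2 had 12935 genes above 0, against 16330 in the next lowest library, and a mean correlation of 0.652 with its replicates. Anterior oral replicate 1 was the shallowest library, with a mean correlation of 0.703. The libraries came from 8 sequencing runs, here called A to H. All anterior medial libraries were in run G and the anterior lateral libraries in runs F and H, so that run and compartment cannot be told apart there. Posterior medial replicate 1 was the only library in run A and posterior lateral replicate 1 the only one in run B.

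The collagen genes spanned a wide range of levels, and the fibrillar chains of skin and bone led. Col1a1 and Col1a2, the chains of type I collagen, had means of 179 ± 50.7 and 119 ± 22.6 RPKM (SD, n = 25), and Col3a1, the single chain of type III collagen, had 137 ± 32.5 RPKM. The next highest means were 77.7 RPKM for Col6a1 and 74.3 RPKM for Col12a1, a FACIT chain, followed by 65.5 RPKM for Col8a1, a short-chain collagen of vessel and corneal matrices. Col5a1, Col5a2, Col6a2 and Col11a1 completed the 10 highest, with means of 59.6, 58.0, 58.0 and 56.0 RPKM. Types V and XI are minor fibrillar collagens that copolymerize with the major ones. Neighbours in this order overlapped in their ranges over the libraries. These 10 genes held 62.9% to 77.2% of the summed collagen RPKM in a library, with a median of 68.6%.

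Of the 43 collagen genes, 29 reached 5 RPKM in at least 3 libraries and 14 did not. By class, 9 of 11 fibrillar, 7 of 9 FACIT, 3 of 7 type VI and related, 2 of 6 basement membrane, 2 of 3 short-chain, 3 of 4 transmembrane and 2 of 2 multiplexin genes reached that level, as did Col7a1, the anchoring fibril collagen of the epithelial junction. Within type IV the split was wide. Col4a1 and Col4a2, the chains of nearly all basement membranes, averaged 53.5 and 48.2 RPKM, while Col4a5 averaged 3.09, Col4a6 0.914, Col4a4 0.105 and Col4a3 0.1 RPKM. Col10a1, the marker collagen of hypertrophic cartilage, stayed at or below 5.18 RPKM in every library. Col4a3, Col4a4, Col6a4, Col6a5 and Col19a1 never exceeded 1 RPKM. At these depths 1 read on a transcript of 5000 bases was worth 0.0305 to 0.122 RPKM.

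**Figure D1:**
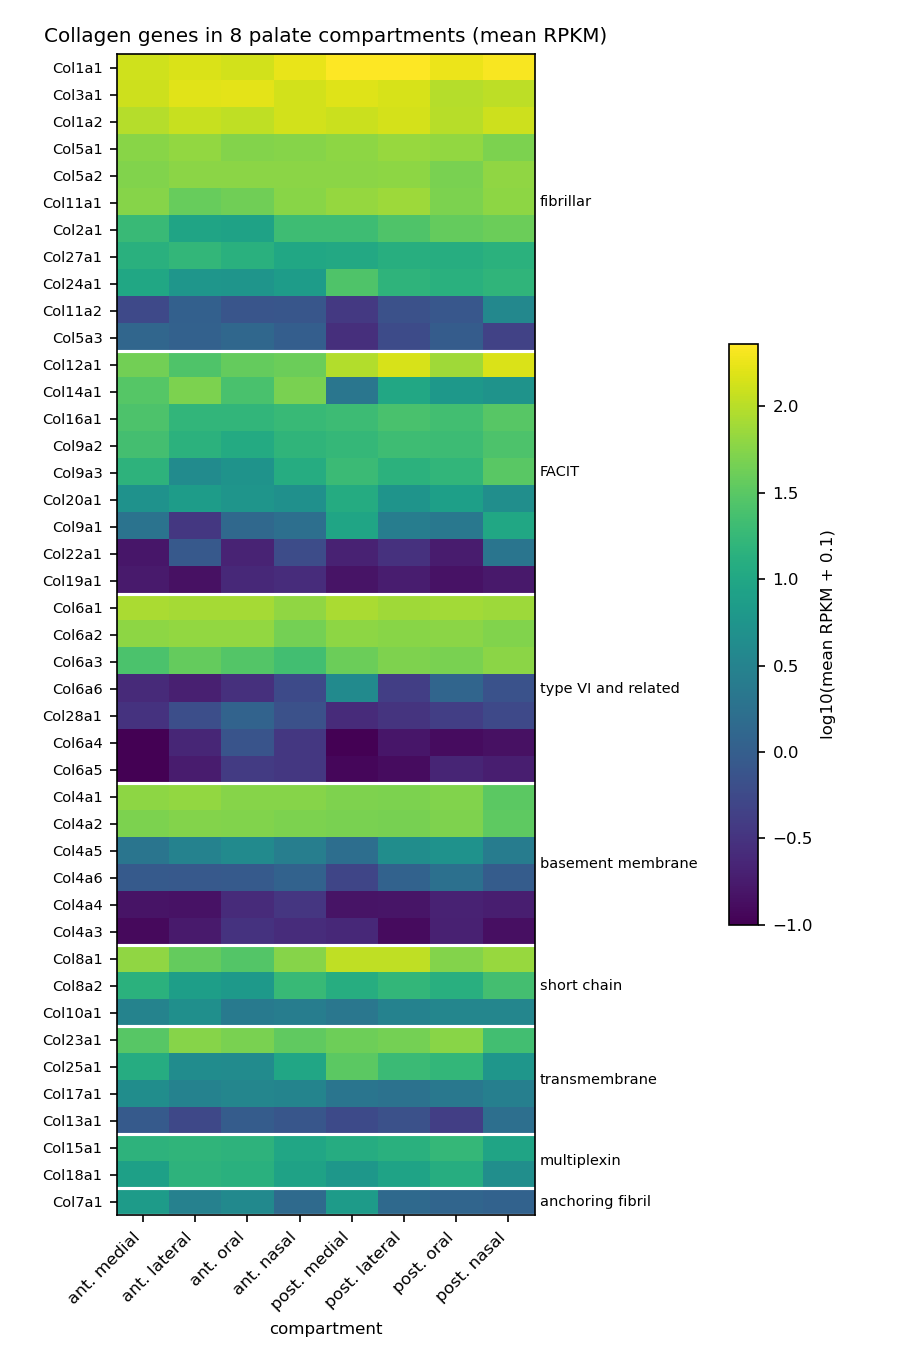
Mean RPKM of the 43 collagen genes (rows, by class, highest mean first) in the 8 compartments (columns), as the log10 of the mean RPKM plus 0.1, from dark (low) to yellow (high). Col1a1, Col3a1 and Col1a2 are bright in all columns. Col14a1 is brighter in the 4 anterior columns than in the posterior ones. Col12a1 is brighter in the posterior columns but, in the anterior ones, has levels like those of Col14a1.

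Some chains that assemble into 1 protein kept similar levels within a library. The ratio of Col4a1 to Col4a2 lay between 0.873 and 1.46 in the 25 libraries, and that of Col6a1 to Col6a2 between 0.989 and 1.84. In the RefSeq promoter table (GRCm38.p6) the start sites of Col4a1 and Col4a2 were 21 bases apart on opposite strands of chromosome 8. The ratio of Col6a1 to Col6a3 was less even, with a median of 2.86 in anterior and 1.41 in posterior libraries. The ratio of Col1a1 to Col1a2 ranged from 0.982 to 3.36, and that of Col8a1 to Col8a2 from 1.62 to 16.4.

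To ask how collagen expression differed along the palate, the 13 anterior libraries were compared with the 12 posterior libraries. The fit had no term for compartment, so libraries of different compartments counted as replicates of the anterior or the posterior palate. The paper draws medial and lateral apart from oral and nasal as divisions of the same shelves, so their tissue can overlap. The largest differences were in a pair of related FACIT genes, in opposite directions: Col14a1 was lower and Col12a1 higher in the posterior palate. Col24a1, Col2a1, Col6a3, Col8a1 and Col1a1 were also higher posteriorly. In all, 7 of the 25 collagen genes tested had an adjusted p under 0.05 (limma, Benjamini-Hochberg), against 3.32% of all 8608 genes tested. Of these, 6 were higher in the posterior palate, against 1.66% of all genes, and 1 was lower, also against 1.66%. By the thresholds of the study, an unadjusted P under 0.05 with a fold change over 2, there were 6 (1.75% of all genes), 5 higher (0.743%) and 1 lower (1.01%) in the posterior palate. The median log2 fold change was 0.08 over the collagen genes and 0.03 over all genes. No collagen gene had ranges that did not overlap over all libraries, a property of 0.267% of all genes.

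Col14a1 (gene ID 12818, chromosome 15, 55139305 to 55352358 in mm9) encodes type XIV collagen, a FACIT that binds fibers and is abundant in tendon and dermis. In anterior libraries its RPKM was 30.4, 33.2 and 26.8 in medial, 55.0, 38.1 and 55.1 in lateral, 17.8, 29.2 and 27.2 in oral and 57.4, 44.4, 53.2 and 38.9 in nasal. In posterior libraries it was 3.68, 0.304 and 1.95 in medial, 18.8, 5.12 and 7.28 in lateral, 3.46, 6.01 and 8.86 in oral and 6.34, 6.13 and 3.09 in nasal. Within each of the 4 compartments every posterior library lay below every anterior one. The full ranges overlapped through a single pair, posterior lateral replicate 1 and anterior oral replicate 1. The log2 fold change, posterior minus anterior on the log2(RPKM + 0.1) scale, was -3.06 (SE 0.38, adjusted p = 7.36e-06).

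Col12a1 (gene ID 12816, chromosome 9, 79446798 to 79566485) encodes the related FACIT type XII, found on fibers of tendon, ligament and periosteum. Its anterior RPKM was 70.5, 34.9 and 25.9 in medial, 31.9, 21.6 and 26.6 in lateral, 46.4, 47.9 and 17.4 in oral and 37.9, 52.6, 55.0 and 15.8 in nasal. Its posterior RPKM was 105, 79.5 and 95.0 in medial, 160, 125 and 147 in lateral, 41.7, 87.1 and 96.5 in oral and 93.5, 163 and 180 in nasal. The ranges were separate in medial, lateral and nasal but overlapped in oral, where posterior replicate 1 fell among the anterior values. The log2 fold change was 1.65 (SE 0.24, adjusted p = 6.42e-05). The ratio of Col12a1 to Col14a1 in the same library was 0.406 to 2.60 in anterior and 8.52 to 262 in posterior libraries. Anterior lateral had the lowest mean ratio, 0.544, and posterior medial the highest, 113, which rests on posterior medial replicate 2 at 262.

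Col24a1 (gene ID 71355, chromosome 3, 144955436 to 145214969), a fibrillar collagen known from developing bone, ranged from 3.56 to 11.1 RPKM in anterior libraries (7.03 ± 2.36, mean and SD) and from 4.68 to 35.3 RPKM in posterior libraries (17.8 ± 8.68). It was highest in posterior medial, at 35.3, 15.5 and 30.2 RPKM. Only posterior lateral replicate 2, at 4.68 RPKM, fell within the anterior range. The log2 fold change was 1.24 (SE 0.24, adjusted p = 0.00209). Col2a1 (gene ID 12824, chromosome 15, 97806033 to 97835155), the main collagen of cartilage, had a median of 13.3 RPKM (4.45 to 25.7) in anterior and 29.0 RPKM (19.1 to 51.4) in posterior libraries. Its log2 fold change was 1.20 (SE 0.25, adjusted p = 0.00374). Its posterior and anterior values were separate in lateral, oral and nasal and overlapped in medial.

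Col6a3, the largest of the main type VI chains, had a median of 27.1 RPKM (12.3 to 43.8) in anterior and 51.4 RPKM (24.4 to 73.4) in posterior libraries. Its log2 fold change was 0.85 (SE 0.19, adjusted p = 0.00639), while Col6a1 and Col6a2 differed by 0.04 (SE 0.13) and -0.00 (SE 0.13). Col8a1 had a median of 46.3 RPKM (15.3 to 76.3) in anterior and 81.7 RPKM (37.4 to 149) in posterior libraries and a log2 fold change of 0.88 (SE 0.24, adjusted p = 0.0427). Col1a1 had medians of 142 (122 to 208) and 204 RPKM (139 to 314) and a log2 fold change of 0.46 (SE 0.12, adjusted p = 0.0319). The calls of Col8a1 and Col1a1 were the least stable: they were lost when libraries were centred on their medians (adjusted p = 0.0687 and 0.103) and in 17 and 9 of the 25 fits that left out 1 library. Their highest values were in posterior medial replicate 1 (139 and 314 RPKM) and posterior lateral replicate 1 (149 and 288 RPKM). Each of these was the only library of its run.

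**Figure D2:**
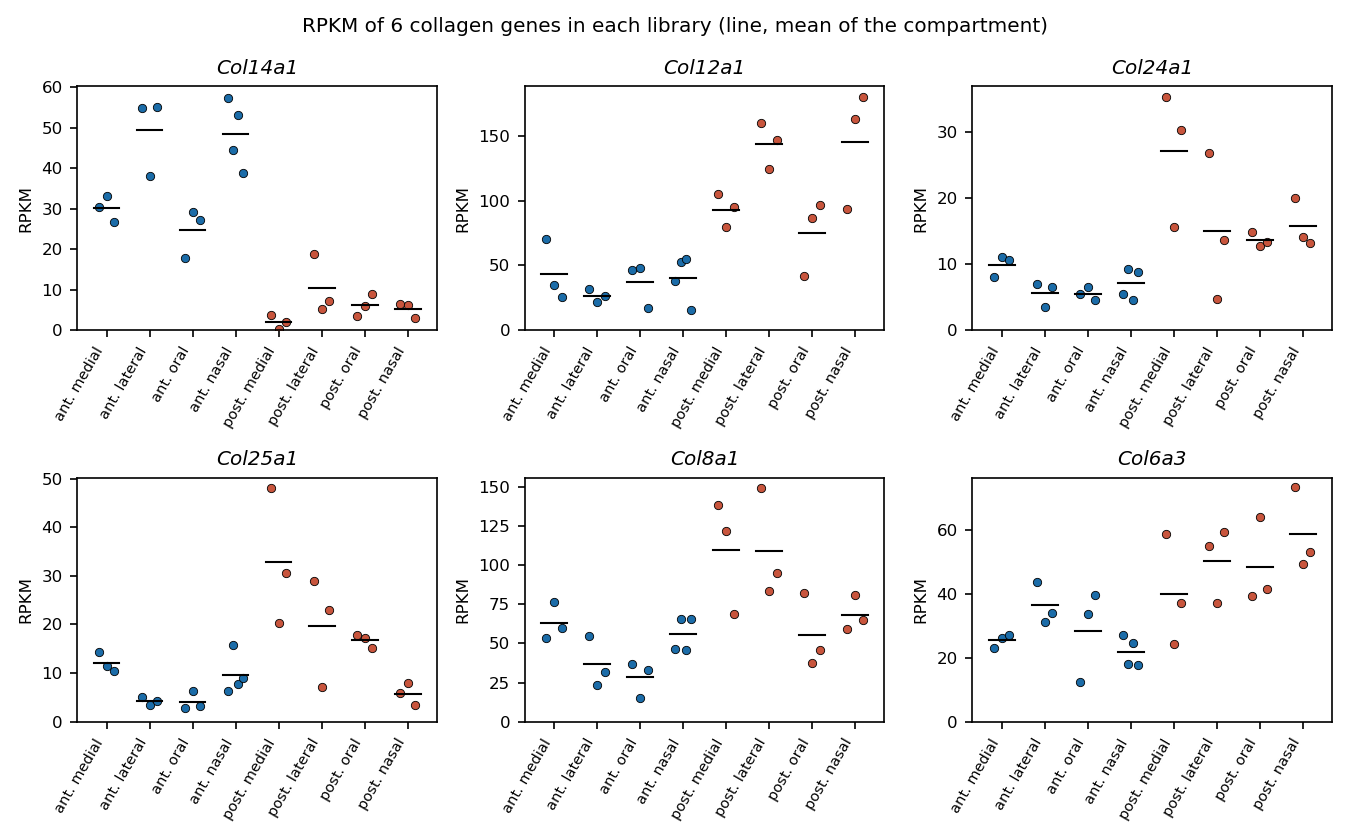
RPKM (vertical axes, linear from 0) of Col14a1, Col12a1, Col24a1, Col25a1, Col8a1 and Col6a3 in each library, by compartment, with anterior in blue, posterior in red and a line at each compartment's mean. Col14a1 lies at 17.8 RPKM or more in all anterior libraries and at 18.8 or less in all posterior ones, and Col25a1 is higher in posterior medial, lateral and oral but not in posterior nasal.

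Among collagens that met the fold threshold without an adjusted p under 0.05, Col25a1 had a log2 fold change of 1.14 (SE 0.37, adjusted p = 0.0948) and Col9a3 one of 1.09 (SE 0.36, adjusted p = 0.10). The adjusted p was 0.0279 for Col25a1 without posterior nasal replicate 3 and 0.0102 for Col9a3 without posterior lateral replicate 1. These were the lowest of the 25 fits that left out 1 library. The highest were 0.161 for Col25a1 and 0.185 for Col9a3. Col25a1 is a membrane-spanning collagen needed for the innervation of muscle, and Col9a3 is a chain of the FACIT type IX of cartilage. Several of the most abundant collagens differed little along the axis. The log2 fold change was 0.06 (SE 0.11) for Col1a2, 0.08 (SE 0.13) for Col5a1, -0.00 (SE 0.10) for Col5a2, 0.38 (SE 0.16, adjusted p = 0.256) for Col11a1 and -0.25 (SE 0.14, adjusted p = 0.419) for Col3a1.

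**Figure D3:**
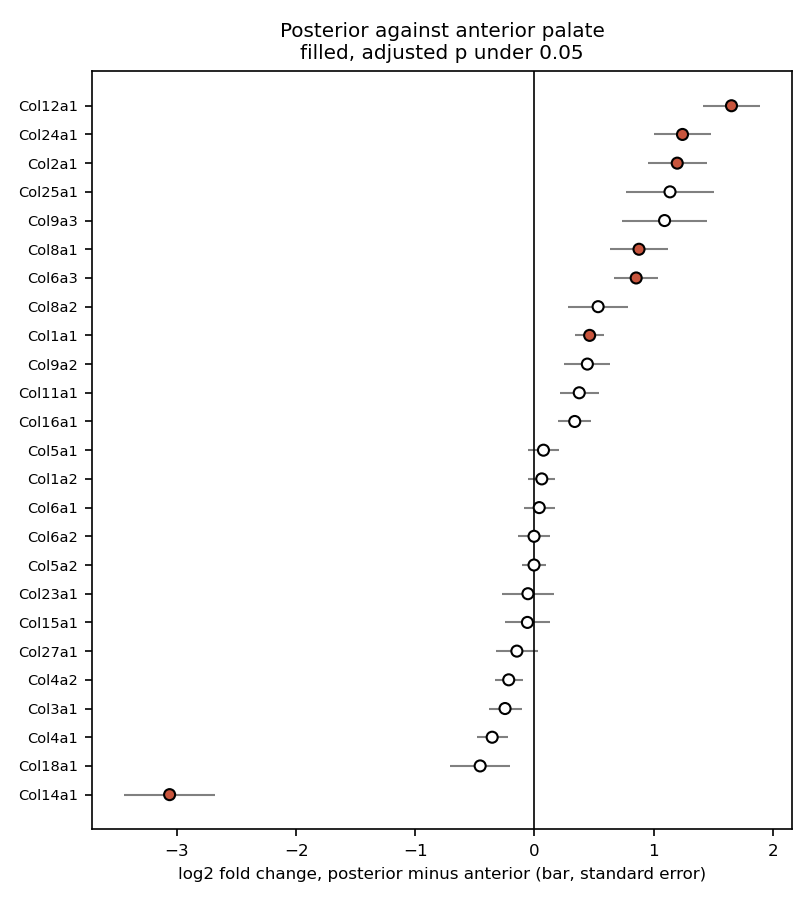
Log2 fold change, posterior minus anterior, with its standard error (bars), for the 25 collagen genes tested, in order. Filled points have an adjusted p under 0.05; Col14a1 stands alone on the left at -3.06 and Col12a1 leads on the right at 1.65.

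Runs were shared between anterior and posterior libraries for parts of each compartment: run H in lateral (2 posterior against 1 anterior library), run G in medial (2 against 3) and run C in nasal and in oral (1 against 1 in each). These differences rest on few libraries and have no test. Within such runs Col14a1 was lower posteriorly in all 4 compartments, by log2 differences of -3.15 in lateral, -5.05 in medial, -2.60 in nasal and -2.94 in oral, and Col12a1 was higher by 2.34, 1.12, 2.56 and 1.26. Col24a1 was higher by 0.29, 1.14, 1.16 and 1.68 and Col9a3, which was not called above, by 1.99, 0.84, 1.99 and 2.17, in the same order. Of the other called genes, Col2a1 and Col1a1 were also higher in all 4 compartments. Col6a3 was not higher in oral, and Col8a1 was not higher in nasal. Col2a1 differed by 1.54, 0.26, 1.57 and 1.70, Col1a1 by 0.28, 0.41, 0.50 and 0.07, Col6a3 by 0.46, 0.24, 2.04 and -0.01 and Col8a1 by 1.48, 0.55, -0.15 and 1.31. With the 8 compartments as groups and no run term, none of the axis calls above was lost. With the run added to that fit, 4 collagen genes had an adjusted p under 0.05: Col14a1 (0.000303), Col12a1 (0.00114), Col9a3 (0.00205) and Col2a1 (0.0453). The values for Col24a1, Col8a1, Col6a3 and Col1a1 were then 0.19, 0.364, 0.565 and 0.843. Without both libraries that stood apart, 6 genes were called and Col8a1 was not.

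Enzymes that process collagen chains were read from a list of 36 symbols, of which 29 were in the table. In the comparison of anterior with posterior, 5 of the 23 tested were higher posteriorly, against 1.66% of all genes, and none lower. Pcolce, which speeds removal of the C-terminal propeptide of fibrillar procollagens, had a log2 fold change of 1.02 (SE 0.15, adjusted p = 5.41e-05) and Adamts3, which cuts the N-terminal propeptide, one of 0.91 (SE 0.18, adjusted p = 0.00187). The others were P4ha2, a prolyl hydroxylase subunit, at 0.76 (SE 0.19), Crtap, part of the prolyl 3-hydroxylation complex, at 0.53 (SE 0.13) and Leprel4 at 0.42 (SE 0.12). The median over the 23 was 0.28. Of the collagen receptors, Ddr2 and Itgb1 were the only ones tested, at 0.24 (SE 0.11, adjusted p = 0.307) and -0.04 (SE 0.12, adjusted p = 0.926). Among 4 osteoblast, 2 cartilage, 3 epithelium and 7 endothelium markers tested along the axis, none had an adjusted p under 0.05. Other osteoblast and cartilage markers fell below the minimum. Summed over all listed markers, osteoblast RPKM was higher in posterior than anterior nasal (380 to 555 against 97.1 to 123). In oral it was 87.0 to 108 against 51.3 to 76.5. Cartilage sums were higher posteriorly in lateral (35.3 to 72.6 against 18.6 to 22.3) and oral (60.9 to 78.7 against 42.2 to 49.6). In medial they were lower (61.9 to 66.3 against 76.7 to 122). Both overlapped elsewhere. Summed epithelium markers were lower in posterior than in anterior lateral (22.5 to 39.2 against 49.5 to 95.2 RPKM). Those of smooth muscle and pericytes were lower there too (56.1 to 79.6 against 158 to 165 RPKM). The pericyte marker Rgs5 was lower posteriorly (1 of 4 smooth muscle and pericyte markers tested), as were 3 of 6 palate mesenchyme genes, Msx1, Shox2 and Prrx1. The part of these cells in the collagen differences was not tested.

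Promoters were read from the RefSeq table (GRCm38.p6), which matched 35 of the 43 collagen genes. Col14a1, Col12a1, Col2a1 and Col1a1, all called along the axis, were among those without a match. The 250 bases before the start of Col24a1, Col25a1, Col8a1 and Col3a1 are shown, in this order, to compare what lies at their starts. Col24a1 and Col8a1 were called higher in the posterior palate. Col25a1 was not called along the axis, and its posterior mean was higher in medial, lateral and oral but not in nasal. Col3a1 is an abundant gene with no call along the axis. Capitals mark 3 short motifs on either strand: the TATA box by its letters TATAAA, the CCAAT box by its own letters and the GC box by the letters GGGCGG, which read CCGCCC on the other strand. The windows were chr3:145292222-145292471 (plus strand), chr3:130180595-130180844 (plus), chr16:57754738-57754987 (minus) and chr1:45311288-45311537 (plus).
Col24a1: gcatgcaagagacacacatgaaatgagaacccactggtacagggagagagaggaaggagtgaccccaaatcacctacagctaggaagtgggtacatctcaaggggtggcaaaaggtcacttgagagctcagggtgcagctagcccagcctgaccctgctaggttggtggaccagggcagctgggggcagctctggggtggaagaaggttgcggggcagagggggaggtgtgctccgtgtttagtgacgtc
Col25a1: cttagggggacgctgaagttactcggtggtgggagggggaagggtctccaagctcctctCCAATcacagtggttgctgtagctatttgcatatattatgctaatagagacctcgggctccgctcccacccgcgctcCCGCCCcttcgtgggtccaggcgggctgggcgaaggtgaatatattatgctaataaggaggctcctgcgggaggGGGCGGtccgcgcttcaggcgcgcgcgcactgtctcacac
Col8a1: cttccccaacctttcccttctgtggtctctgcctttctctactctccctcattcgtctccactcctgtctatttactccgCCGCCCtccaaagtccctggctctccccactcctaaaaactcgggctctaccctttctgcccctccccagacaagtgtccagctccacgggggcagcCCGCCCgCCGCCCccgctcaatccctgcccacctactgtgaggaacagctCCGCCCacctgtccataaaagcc
Col3a1: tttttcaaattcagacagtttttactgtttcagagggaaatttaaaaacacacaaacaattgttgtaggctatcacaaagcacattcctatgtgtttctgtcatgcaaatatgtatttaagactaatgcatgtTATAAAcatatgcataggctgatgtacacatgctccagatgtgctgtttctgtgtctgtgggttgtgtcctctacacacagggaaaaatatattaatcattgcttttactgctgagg
The Col24a1 window held none of the motifs, Col25a1 held the CCAAT box and the GC box, Col8a1 held the GC box and Col3a1 held the TATA box. Over the 35 genes, the TATA box was found in 5, the CCAAT box in 13 and the GC box in 21. In all 32851 windows of the same length the shares were 12.4%, 33.8% and 32.7%. A match is a description of the letters and not a binding site.

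Variation over all 8 compartments was tested with 1 F test per gene. Of 29 collagen genes tested, 9 had an adjusted p under 0.05, against 4.42% of 11913 genes. They were Col14a1 (3.62e-05), Col2a1 (0.000828), Col25a1 (0.0014), Col12a1 (0.00522), Col8a1 (0.0151), Col24a1 (0.0241), Col7a1 (0.0389), Col8a2 (0.0391) and Col16a1 (0.0467). Col7a1 was highest in posterior medial, at 5.65, 11.9 and 3.07 RPKM, and in anterior medial, at 3.76, 5.49 and 11.3 RPKM, and its mean was lowest in posterior nasal, at 1.06 RPKM. The summed RPKM of the 10 epithelium markers was 80.4 to 139 in anterior medial and 65.9 to 135 in posterior medial, 69.2 to 152 in anterior nasal, where Col7a1 was 0.675 to 2.18 RPKM, and 22.5 to 109 over the other 5 compartments. Its part in the Col7a1 values was not tested. The calls of Col7a1, Col8a2 and Col16a1 were lost in 15, 12 and 20 of the 25 fits that left out 1 library, and with the replicate number as a block (adjusted p = 0.0828, 0.0559 and 0.0699). The call of Col24a1 was lost without posterior medial replicate 1 or 3 (adjusted p up to 0.0643). With the sequencing run in the fit the adjusted p was under 0.05 for 3 genes, Col14a1 (0.0032), Col12a1 (0.0149) and Col9a3 (0.0222).

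Lateral and medial compartments were compared within the anterior and within the posterior palate. In the anterior palate, 3 of 26 collagen genes tested had an adjusted p under 0.05 (2.51% of all genes) and 2 met the thresholds of the study (2.37%). Ranges did not overlap for 14 of the 26, against 21.3% of all genes. Col25a1 was lower in lateral, at 5.0, 3.48 and 4.23 RPKM, than in medial, at 14.4, 11.4 and 10.4 RPKM, a log2 fold change of -1.49 (SE 0.18, adjusted p = 0.00693). Col16a1, a FACIT of varied connective tissues, was 15.6, 15.7 and 16.8 RPKM in lateral and 26, 27.9 and 24.7 RPKM in medial (log2 fold change -0.70, SE 0.11, adjusted p = 0.0192). Col23a1, a membrane-spanning collagen, was higher in lateral, at 54.5, 56.9 and 54.5 RPKM against 29.8, 27.1 and 35.1 RPKM (log2 fold change 0.86, SE 0.13, adjusted p = 0.0178). Replicates were close and the groups were separate for all 3 genes.

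Values of Col9a3 were lower in anterior lateral than in anterior medial. They were 3.33, 4.06 and 4.99 RPKM against 20.8, 16.5 and 7.34 RPKM, without overlap (log2 fold change -1.71, SE 0.37, adjusted p = 0.0629). All lateral values were under 5 RPKM, so Col9a3 passed the minimum only through the medial libraries, where it was high. Of 4 cartilage markers tested there, 3 were lower in lateral, and the sum of the 10 listed markers was 18.6 to 22.3 RPKM in lateral and 76.7 to 122 RPKM in medial. Other marker sums were higher in lateral without overlap. They were 153 to 174 against 111 to 128 RPKM for endothelium, 158 to 165 against at most 145 RPKM for smooth muscle and pericytes, 15.7 to 22.0 against 5.67 to 7.71 RPKM for Schwann cells and 477 to 522 against 434 to 453 RPKM for palate mesenchyme. The part of these cells in the collagen values was not tested. The calls of Col16a1 and Col23a1 were lost in 5 of 6 fits that left out 1 library, in all but the one without anterior medial replicate 3, and the calls of all 3 genes were lost with no expression minimum and in a fit of all 25 libraries, with or without the run. With the run in the fit the log2 fold change was -0.48 for Col25a1, -0.46 for Col16a1 and 1.65 for Col23a1.

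In the posterior palate no collagen gene of 26 tested differed between lateral and medial at an adjusted p under 0.05 in limma (0% of all 10324 genes), and 1 gene had an unadjusted P under 0.05 (1.54% of all genes). That gene was Col14a1, with 18.8, 5.12 and 7.28 RPKM in lateral and 3.68, 0.304 and 1.95 RPKM in medial (log2 fold change 2.62, SE 0.91, adjusted p = 0.957), the one collagen gene to meet the thresholds of the study (1.12%). Its medial values were all under 5 RPKM, so it passed the minimum only through the lateral libraries, where it was high. With a lateral library left out it was not tested. Without posterior medial replicate 2 its log2 fold change was 1.69. Ranges did not overlap for 4 genes (6.62%). The lateral-medial difference was tested against the axis for 27 collagen genes, and none had an adjusted p under 0.05 (0.00902% of all genes). At an unadjusted P under 0.05 there were 4 (3.36%): Col2a1, Col16a1, Col12a1 and Col23a1.

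**Figure D4:**
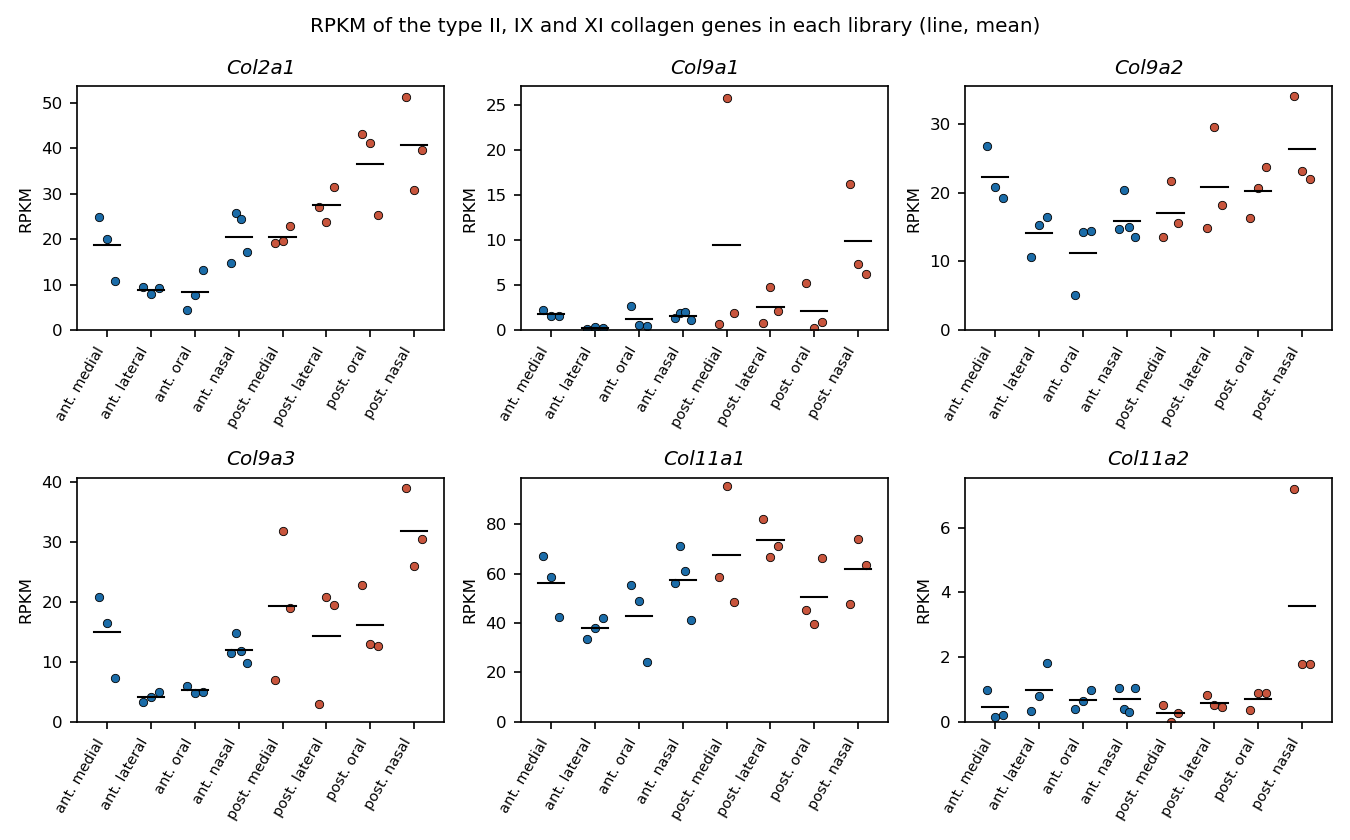
RPKM (vertical axes, linear from 0) of Col2a1, Col9a1, Col9a2, Col9a3, Col11a1 and Col11a2 in each library, by compartment, with anterior in blue, posterior in red and a line at the mean. Posterior nasal has the highest mean of Col2a1 (40.6 RPKM), Col9a2 (26.4 RPKM) and Col9a3 (31.8 RPKM), and 1 posterior medial library is far above its replicates for Col9a1 (25.8 RPKM).

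Oral and nasal compartments were compared in the same way. In the anterior palate none of 26 collagen genes had an adjusted p under 0.05 in limma (0% of 10684 genes), and 6 had an unadjusted P under 0.05 (2.98%). The thresholds of the study were met by 5 (1.44%), all of them lower in oral (0.786%). They were Col8a2 (log2 fold change -1.49, SE 0.36), Col2a1 (-1.37, SE 0.40), Col25a1 (-1.23, SE 0.40), Col9a3 (-1.16, SE 0.24) and Col8a1 (-1.05, SE 0.35). Col9a3 was 6.02, 4.77 and 4.97 RPKM in oral and 11.4, 14.7, 11.8 and 9.73 RPKM in nasal, and the groups were separate. Col8a2, which pairs with Col8a1 in type VIII collagen, was 5.21, 9.44 and 4.51 RPKM in oral and 26.6, 16.2, 17.5 and 11.7 RPKM in nasal, also separate. Within the 3 runs shared by both compartments, Col9a3 was lower in oral by log2 differences of -0.96, -1.10 and -1.28. Ranges did not overlap for 7 genes (3.67%). Marker sums moved with these compartments too, without overlap. In oral and nasal they were 42.2 to 49.6 and 65.8 to 115 RPKM for cartilage, 51.3 to 76.5 and 97.1 to 123 RPKM for osteoblasts, 129 to 207 and 74.6 to 126 RPKM for endothelium and 19.5 to 35.1 and 4.24 to 15.2 RPKM for Schwann cells. Their part in the collagen values was not tested.

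In the posterior palate, 5 of 27 collagen genes met the thresholds of the study (3.5%), 3 higher (1.97%) and 2 lower (1.52%) in oral. None had an adjusted p under 0.05 in limma, against 1.25% of 10586 genes, while 11 had an unadjusted P under 0.05 (8%) and 13 had ranges that did not overlap (11.8%). Col25a1 was 17.8, 17.3 and 15.1 RPKM in oral and 5.88, 7.87 and 3.47 RPKM in nasal (log2 fold change 1.60, SE 0.30, adjusted p = 0.0549). Col18a1, the multiplexin that gives rise to endostatin, was 9.63, 16.9 and 10.3 RPKM in oral and 5.34, 4.54 and 3.61 RPKM in nasal (1.40, SE 0.28, adjusted p = 0.0653). Col23a1 was 51.9, 66.7 and 53.1 RPKM in oral and 32.5, 19.7 and 13.4 RPKM in nasal (1.47, SE 0.33, adjusted p = 0.0969). All oral values of these 3 genes lay above all nasal ones.

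Of the 3 type IX collagen chains, Col9a1 and Col9a3 met the thresholds of the study, with higher values in posterior nasal. Col9a1 was 16.2, 7.36 and 6.2 RPKM in nasal and 5.29, 0.283 and 0.858 RPKM in oral (log2 fold change -2.87, SE 0.85, adjusted p = 0.254). All nasal libraries reached the minimum of 5 RPKM, but in oral only replicate 1 did. Without posterior oral replicate 1 its log2 fold change was -3.92 (adjusted p = 0.0249), the one collagen call gained in this comparison by leaving out a library. Over the 6 fits that left out 1 library its adjusted p ran up to 0.545. Col9a3 was 38.9, 25.9 and 30.5 RPKM in nasal and 22.7, 13 and 12.7 RPKM in oral (-1.01, SE 0.29, adjusted p = 0.232), without overlap. Col9a2 was 34.1, 23.2 and 22.0 RPKM in nasal and 16.3, 20.7 and 23.7 RPKM in oral, with overlap (-0.37, SE 0.26).

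Markers of other cells moved with these compartments. The sum of the 8 osteoblast markers was 380 to 555 RPKM in posterior nasal and 87.0 to 108 RPKM in posterior oral, and all 4 tested were lower in oral. The sum of the 7 endothelium markers was 134 to 208 RPKM in oral and 58.8 to 92.9 RPKM in nasal, with 5 of 7 meeting the thresholds of the study. The sum of the 10 cartilage markers was 84.3 to 118 RPKM in nasal and 60.9 to 78.7 RPKM in oral, and of 4 tested 2 were lower in oral by the thresholds of the study and 1 at an adjusted p under 0.05. The sums were also separate for Schwann cells, at 13.2 to 31.4 RPKM in oral and 2.91 to 7.32 RPKM in nasal, and for red cells, at 621 to 971 and 333 to 552 RPKM. Col4a1, of vessel and epithelial basement membranes, was 42.4 to 63.1 RPKM in oral and 27.7 to 35.3 RPKM in nasal (log2 fold change 0.67, SE 0.23, adjusted p = 0.380). The part of these cells in the collagen values was not tested. Of 25 collagen processing genes tested, 2 were lower in oral at an adjusted p under 0.05, against 0.661% of all genes: Glt25d2, a collagen galactosyltransferase, by a log2 fold change of -1.30 (SE 0.24, adjusted p = 0.0478) and Adamts3 by one of -1.11 (SE 0.20, adjusted p = 0.0402).

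Col25a1 had the opposite order of oral and nasal in the anterior and the posterior palate. In the anterior palate it was 2.84, 6.22 and 3.15 RPKM in oral and 6.33, 15.8, 7.71 and 8.96 RPKM in nasal, and every anterior oral library was below every anterior nasal one. The difference between the axis levels was 2.83 log2 units (SE 0.54, unadjusted p = 0.000207, limma adjusted p = 0.113). Of 27 collagen genes tested for this difference, none had an adjusted p under 0.05 (0.035% of all genes) and 3 had an unadjusted P under 0.05 (3.38%), Col25a1, Col14a1 and Col2a1.

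**Figure D5:**
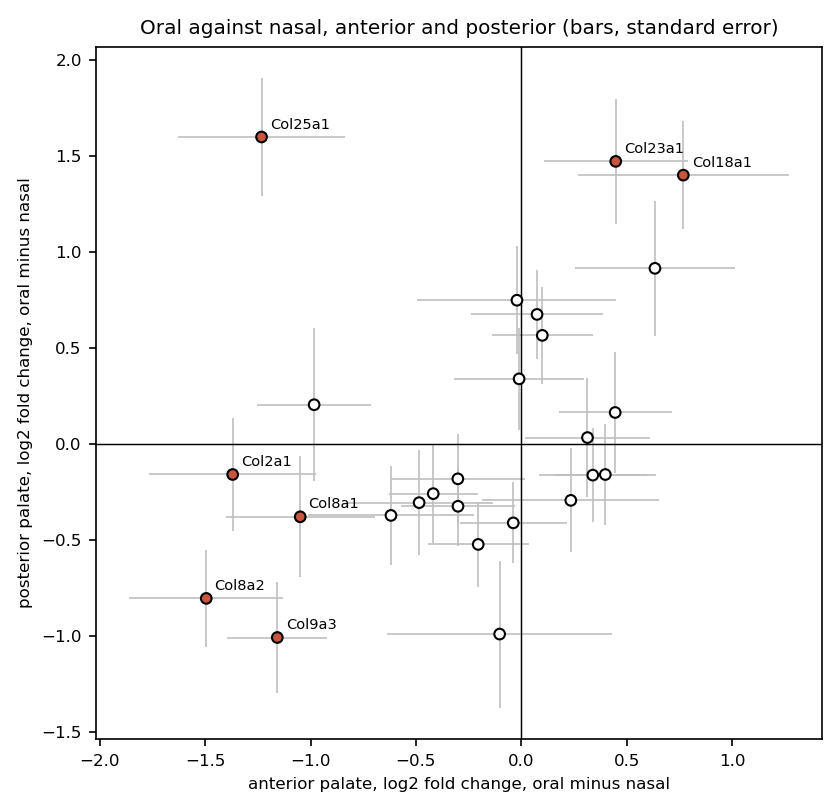
Log2 fold change, oral minus nasal, of the collagen genes tested in both parts of the palate, anterior (horizontal) against posterior (vertical), with standard errors. Filled, named points met the thresholds of the study in at least 1 of the comparisons; Col25a1 lies at -1.23 and 1.60, on opposite sides of 0, and Col9a1, tested in the posterior palate alone, is not drawn.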

How the data were processed

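RNA-Seq libraries were made from laser captured tissue after amplification of the RNA. The authors aligned the reads and deposited RPKM values computed with GeneSpring. The submitters' processing notes name TopHat and mm9. No read counts were used here, since collagen values were not whole multiples of 1 read. Depth was taken from the steps between low RPKM values, with 275 of 276 ratios of steps between libraries closing. Its absolute scale used annotated transcript lengths, which matched in 165 of the 422 genes compared. On that scale, counting error alone gives 7.81% to 15.6% at 5 RPKM on a transcript of 5000 bases.

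Values were tested, two-sided, on log2(RPKM + 0.1) with limma 3.58.1 in R 4.3.3, and p-values were adjusted by Benjamini-Hochberg over all genes tested. A check of limma on simulated data used changes larger than most of those reported here, so it does not cover smaller ones. A gene entered a test when 3 or more of its samples reached 5 RPKM, or, for anterior against posterior, when 6 or more reached 10 RPKM. A gene could thus enter through the group where it was high alone. The collagen genes and all gene lists were chosen with earlier results of these data known. Collagen genes were named where they had an adjusted p under 0.05 in any comparison, met an unadjusted P under 0.05 with a fold change over 2 in any comparison of 2 groups, or were among the 10 highest in mean RPKM. The sequencing run was read from the alignment names in column headers, and 1 column headed by an alignment name alone was taken to hold RPKM. Same-numbered anterior oral and nasal libraries deviated together weakly (correlations of 0.239, 0.215 and 0.13). The labels do not say whether those numbers pair the samples. Replicates 2 and 3 of anterior oral were in runs E and C, and those of anterior nasal in runs D and E. The other comparisons had at least 1 correlation under 0.1 and values of up to 0.418. Alternatives were other pseudocounts, scalings and minimums, a variance trend, the replicate block, all 25 samples in 1 fit, the run as a term, and each library left out in turn. Leaving out both libraries that stood apart was added after seeing the data. Figures were drawn with matplotlib 3.10.9.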

Additional observations from a re-analysis of the deposited data

Results flagged for a closer look

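Col6a1 had 1 library apart from the others in anterior nasal. Replicate 1 was at 78.3 RPKM and the other replicates at 57.2, 59.1 and 57.1 RPKM, a gap of 0.906 of the whole range, above Dixon's critical value for 4 samples. Of the collagen genes named in the report, 22 were checked in that group, and chance flags about 1 in 20.

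The lateral-medial difference of Col2a1 had opposite signs in the anterior and the posterior palate. All anterior lateral libraries (9.45, 8.0 and 9.35 RPKM) lay below all anterior medial ones (25, 20.2 and 10.9 RPKM), and all posterior lateral libraries (27.1, 23.8 and 31.6 RPKM) lay above all posterior medial ones (19.1, 19.6 and 23.0 RPKM). The difference between them was 1.39 log2 units (SE 0.40, unadjusted p = 0.00556, limma adjusted p = 0.812 over all genes). Neither part was called alone. The log2 fold change was -0.98 (SE 0.28, limma adjusted p = 0.145) in the anterior palate, where run and compartment cannot be told apart. In the posterior palate it was 0.41 (SE 0.26, limma adjusted p = 0.957).

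The oral-nasal difference of Col25a1 also had opposite signs, with all libraries of 1 compartment on 1 side in each case. The difference between the anterior and the posterior palate was 2.83 log2 units (SE 0.54, unadjusted p = 0.000207, limma adjusted p = 0.113 over all genes).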

How the results depend on the processing

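Counts below are of collagen genes and no direction reversed. The anterior lateral against medial count at an adjusted p under 0.05, 3, was 1 with no expression minimum, 1 with the replicate block, 0 with all 25 samples and 0 with the run, and 1 to 4 with 1 library left out. Its count by the thresholds of the study, 2, was 4 with no minimum and 1 with a doubled one, and 2 to 5 with 1 library left out (5 without anterior lateral replicate 1). The posterior lateral against medial count by those thresholds, 1, was 4 with no minimum, 0 with a doubled one, 0 with a variance trend, 2 with the replicate block, 2 with all 25 samples and 3 with the run, and 0 to 1 with 1 library left out (0 without posterior lateral replicate 2 or 3). The posterior oral against nasal count at an adjusted p under 0.05, 0, was 1 with a pseudocount of 1, with median centring and with quantile normalization (Col25a1 each time), 1 with all 25 samples (Col23a1) and 0 to 1 with 1 library left out. By the thresholds of the study, 5, it was 8 with no minimum, 3 with a doubled one and 5 to 6 with 1 library left out. Along the axis the count at an adjusted p under 0.05, 7, was 4 with the run and the 8 compartments as groups. With 1 library left out it was 5 to 7. By the thresholds of the study, 6, it was 10 with no minimum and 5 to 6 with 1 library left out. Over 8 compartments, 9 became 3 with the run and 6 to 12 with 1 library left out, and 13 without both libraries that stood apart. Anterior oral against nasal gave 4 to 6 by the thresholds of the study with 1 library left out and 5 with the replicate block. The block changed no call there. With the block 9 over the 8 compartments became 6. The labels do not say whether the replicate numbers pair the samples. Outside anterior oral against nasal, same-numbered libraries had correlations from -0.155 to 0.418. The summed collagen RPKM of anterior oral was 1113 as deposited and 1151 after scaling to the 75th percentile. The cause of these changes was not tested. The minimum of 5 RPKM was a choice, and genes below it were left out of these tests.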
